A study of Homo sapiens with 6 samples.

Results

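The cytosolic ribosomal protein genes encode the protein part of the ribosome that translates nuclear-encoded mRNA. They were taken as the protein-coding rows of the deposited table whose whole GENCODE 29 symbol had a set form. The form was RPL or RPS with a number, alone or followed by A, X or L, and RPL symbols could end in a further number. RPLP0, RPLP1, RPLP2, RPSA and FAU were added. The ribosomal S6 kinases and symbols of other forms, such as RPS19BP1, were left out. This rule uses names only and no measured value. It gave 84 genes of 32434 gene IDs: 32 of the small subunit, 46 of the large subunit and 6 paralogs (RPL22L1, RPL39L, RPS27L, RPL7L1, RPL26L1 and RPL3L). The 84 genes lie on 21 chromosomes and 32 chromosome arms. RPL10L also matches the names in the annotation and was not analysed here.

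The cells were SK-N-BE(2), a human neuroblastoma line grown from a tumour of the sympathetic nervous system. RNA was sequenced from 3 libraries of cells carrying a lentiviral short hairpin RNA against MYT1 (shMYT1) and from 3 libraries of cells carrying a control hairpin (shNC). Per the labels, all cells were infected for 24 h and kept in puromycin for 48 h, so that both groups carry a vector and a selection marker. The labels' genotype and design fields say knockout and the treatment field says knockdown. Hairpin sequences were not given in the sources used here. Whether the replicates of a group came from separate cultures is not stated either, so p-values here cover the spread between libraries, which may be technical. The question is how transcript levels differ between cells with the hairpin against MYT1 and control cells. The product of MYT1 is a transcription factor with zinc fingers found in developing neurons. The labels do not say whether the libraries differ in copy number of chromosome arms. A response to less MYT1 therefore cannot be told apart from other differences between the cells of the groups.

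A ribosome needs its proteins in nearly equal numbers, although their genes are scattered over the genome. The mRNAs of these genes typically begin with a C followed by a run of pyrimidines, the 5′ terminal oligopyrimidine (TOP) tract, through which the mTOR pathway and the protein LARP1 control their translation. Many of the genes carry small nucleolar RNA (snoRNA) genes in their introns, and most have intronless pseudogene copies elsewhere in the genome. Loss of 1 gene copy of several of them causes Diamond-Blackfan anaemia, a failure of red cell formation. In neuroblastoma, MYCN is known to drive ribosome production.

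The TOP tract was read from the RefSeq promoter table (GRCh38.p14), in which 67 of the 84 genes were matched. In 48 of the 67 (71.6%) at least 1 listed start was a C followed by at least 4 more pyrimidines, against 5.14% of all 27303 genes in that table. The stretches printed here run from 50 bases before the start to 20 bases from it, and the capitals mark the TOP tract at the start. They are shown for chromosome 19 because its long-arm genes all rose in shMYT1 cells and its short-arm genes did not. All 6 matched genes of the long arm had a tract, of 7 to 11 bases, and 1 of the 3 matched genes of the short arm had it.
RPL13A, chr19:49487558-49487627, plus strand: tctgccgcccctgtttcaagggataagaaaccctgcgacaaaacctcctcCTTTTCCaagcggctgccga
RPS19, chr19:41860205-41860274, plus strand: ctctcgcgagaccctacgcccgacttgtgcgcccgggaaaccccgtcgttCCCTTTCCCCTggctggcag
RPL18, chr19:48619159-48619228, minus strand: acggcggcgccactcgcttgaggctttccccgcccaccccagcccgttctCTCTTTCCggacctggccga
RPS16, chr19:39435930-39435999, minus strand: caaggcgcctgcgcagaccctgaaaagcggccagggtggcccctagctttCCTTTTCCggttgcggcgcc
RPL28, chr19:55385882-55385951, plus strand: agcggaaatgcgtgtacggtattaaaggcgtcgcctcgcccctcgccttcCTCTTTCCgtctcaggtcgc
RPS9, chr19:54200808-54200877, plus strand: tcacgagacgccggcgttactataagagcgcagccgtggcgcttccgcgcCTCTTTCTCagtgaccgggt
RPL36, short arm, fell in shMYT1 cells, chr19:5690245-5690314, plus strand: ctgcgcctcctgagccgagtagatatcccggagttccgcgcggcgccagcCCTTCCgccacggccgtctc
RPS15, short arm, no tract at the listed start, chr19:1438346-1438415, plus strand: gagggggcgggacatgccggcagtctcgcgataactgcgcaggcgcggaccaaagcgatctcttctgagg

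Genes on other chromosomes show the same kind of start. RPL21, the single gene of the set on chromosome 13, and RPL24, which rose on chromosome 3, are printed beside RPL39 on the X chromosome, whose tract of 19 bases was the longest and whose level did not pass the test.
RPL21, chr13:27251508-27251577, plus strand: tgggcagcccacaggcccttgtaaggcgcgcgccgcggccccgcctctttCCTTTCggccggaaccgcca
RPL24, chr3:101686699-101686768, minus strand: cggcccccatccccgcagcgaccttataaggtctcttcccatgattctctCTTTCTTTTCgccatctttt
RPL39, chrX:119791611-119791680, minus strand: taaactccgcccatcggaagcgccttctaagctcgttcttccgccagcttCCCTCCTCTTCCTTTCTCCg
A tract was found in 14 of 18 matched genes that rose, in the 1 matched gene that fell and in 33 of 48 that did not pass, so it was common in all of these groups. Other motifs were searched on both strands from 250 bases before to 50 bases after the start. CCGGAAG, the core bound by ETS factors, was found in 35.8% of the matched genes and 12.2% of all genes, and AAGATGGC, the core of the YY1 motif, in 11.9% and 3.52%. CACGTG, the E-box that MYC and MYCN can bind, was found in 7.46% and 8.78%, and TATAAA in 8.96% and 14%. These matches describe the letters in this window only.

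Before the ribosomal genes, the targeted gene was checked. MYT1 (ENSG00000196132, chromosome 20, hg38) was at 4.20, 4.13 and 4.36 FPKM in the shMYT1 libraries, against 5.73, 5.12 and 5.18 FPKM in the shNC libraries. The groups did not overlap, and the log2 fold change was -0.28 (SE 0.05, limma adjusted p = 0.0102; exact two-sided permutation p = 0.1, the smallest that 3 against 3 allow). FPKM is the number of fragments scaled to the length of the exons in kilobases and to the library's depth, and every fold change given is shMYT1 over shNC on the log2(FPKM + 1) scale. The libraries held 18.16 to 20.30 M fragments in shMYT1 and 21.08 to 21.68 M in shNC. The mitochondrial share of all FPKM was 24.56 to 24.73% in shMYT1 and 22.97 to 23.91% in shNC libraries.

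Most ribosomal protein genes differed little between the groups, and all 8 genes of chromosome arm 19q rose. Among 83 tested ribosomal genes, 23 were higher and 3 lower in shMYT1 cells past the threshold, an adjusted p under 0.05 from limma with Benjamini-Hochberg adjustment over all 14106 tested genes, and 57 did not pass. Over all tested genes 24.2% passed, made up of 11.9% that rose and 12.3% that fell. Among those of at least 5 FPKM, where nearly all of these genes lie, 16.2% rose and 17% fell in a fit of their own. The median log2 fold change was 0.08, against -0.0048 over all tested genes, and the value was above 0 in 69 genes and below 0 in 14. In 73 of the 83 genes it lay within 0.2 of zero. All 3 shMYT1 libraries lay above all 3 shNC libraries in 35 genes (20.5% of all tested genes) and below them in 4 (21.8%), and the libraries overlapped in 44. RPL3L, the striated muscle paralog, was under the filter of 1 FPKM with 3 to 10 fragments per library. In bulk RNA, less RNA per cell and fewer cells of a kind cannot be told apart.

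The size of the count rested on the libraries used. Rising genes numbered 15 without shMYT1 replicate 1 (7.76% of all tested genes rose in that fit), 14 without replicate 2 (8.95%) and 15 without replicate 3 (8.01%). They numbered 12 without shNC replicate 1 (7.78%), 10 without replicate 2 (7.22%) and 29 without replicate 3 (11.2%). Replicate 2 of shMYT1 had the highest value of its group in 60 of the 83 genes and shNC replicate 3 in 53. The genes' median distance from the shNC mean was 0.04, 0.11 and 0.05 (log2) in shMYT1 replicates 1, 2 and 3, against -0.02, -0.01 and 0.03 in the shNC replicates. With all libraries brought to a common FPKM total, 14 rose and 5 fell (9.27% and 16.2% of all tested genes), and with quantile normalization 14 rose and 10 fell (12% and 12.4%). With the common total taken over rows that are neither mitochondrial nor of the set, 24 rose and 3 fell (11.6% and 12.5%). With each of these scalings the 8 genes of 19q and RPL5 were among those that rose. Over all genes the total of all rows gave 1307 rises and 2279 falls, against 1683 and 1737 with the values as deposited. The rising count was 10 with no filter on low values (3.84%), 12 with no variance trend (10.9%) and 33 with voom on recovered fragments (15.4%).

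**Figure D1:**
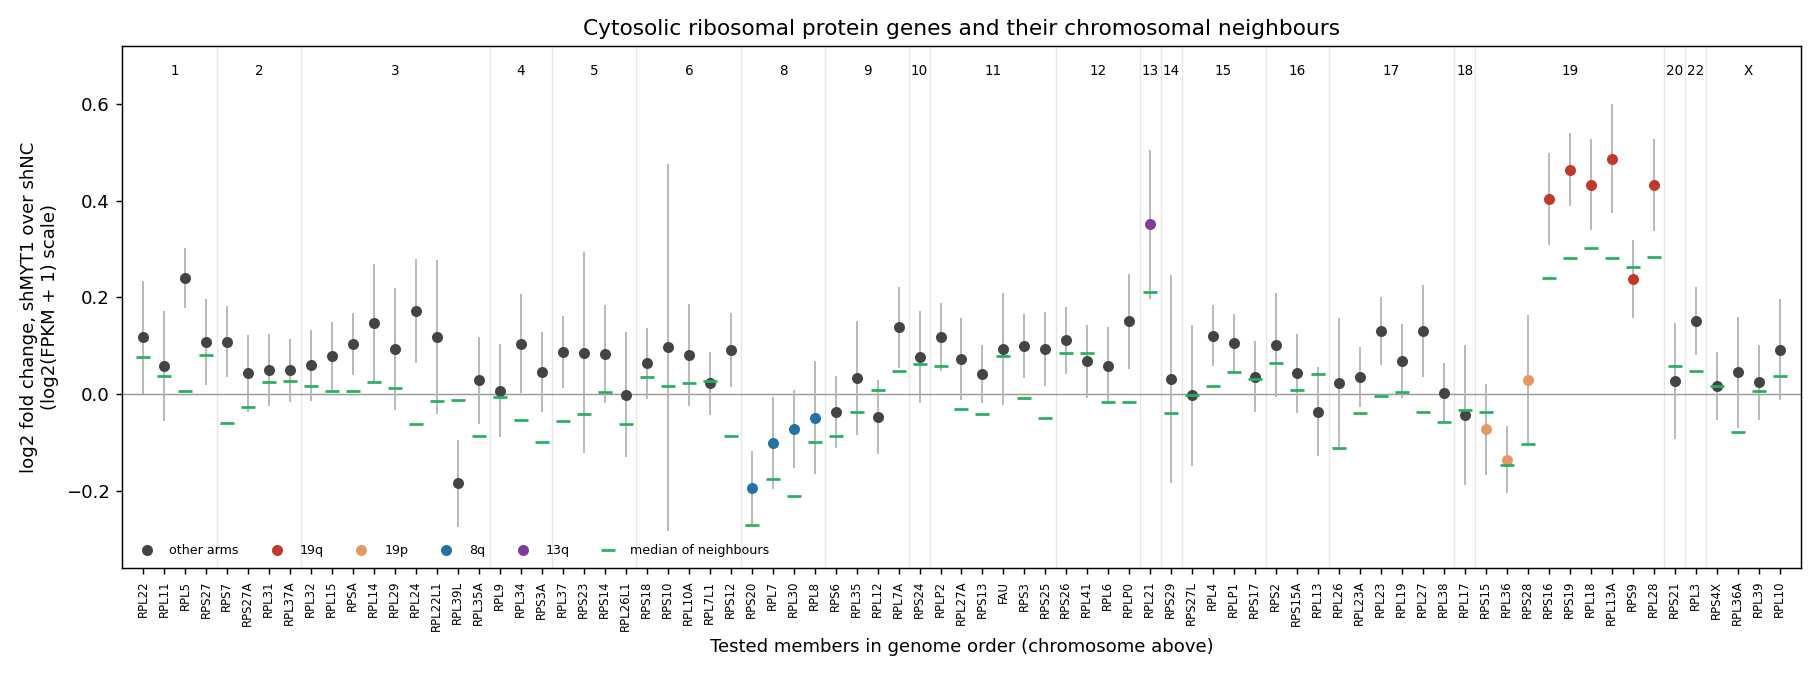
Log2 fold change, shMYT1 over shNC, of 79 tested ribosomal protein genes in genome order, with limma's 95% interval as a grey bar and the median of up to 50 neighbouring tested genes as a green dash. The 6 genes of 19q drawn stand between 0.24 and 0.49 over neighbours at 0.24 to 0.30, the 4 genes of 8q lie below 0 over neighbours that are lower still, and most other genes lie close to 0, apart from RPL21, RPL5 and RPL39L.

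The 8 genes of chromosome arm 19q all rose, with a median of 0.43 on the log2 scale, and in all 8 the groups did not overlap. RPL13A (ENSG00000142541, chromosome 19, 49487554 to 49492308, plus strand), whose large-subunit protein is also known to leave the ribosome and silence inflammatory mRNAs in human monocytes, was among the most abundant. Its shMYT1 libraries held 839, 902 and 885 FPKM, against 597, 613 and 664 FPKM in the shNC libraries. Every shMYT1 value was far above the highest shNC value, and the log2 fold change was 0.49 (SE 0.05, limma adjusted p = 0.000978). RPS19 (ENSG00000105372, 41859918 to 41872926, plus strand), the gene most often mutated in Diamond-Blackfan anaemia, was at 149, 155 and 157 FPKM in shMYT1 libraries, against 108, 112 and 114 FPKM in shNC libraries. It rose by 0.46 (SE 0.03, limma adjusted p = 0.000302), with the lowest adjusted p among the ribosomal genes.

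Other genes of this arm moved in the same direction. RPL18, a large-subunit gene, averaged 122 ± 3.73 FPKM in shMYT1 and 89.8 ± 3.82 FPKM in shNC cells (SD, n = 3 each), a log2 fold change of 0.43 (limma adjusted p = 0.000742). RPL28, also of the large subunit, averaged 57.0 ± 2.18 and 42.0 ± 1.54 FPKM in shMYT1 and shNC cells, a log2 fold change of 0.43 (limma adjusted p = 0.000805). RPS16, whose protein has a tail that reaches the tRNA in the P site, averaged 276 ± 8.26 FPKM in shMYT1 and 208 ± 9.41 FPKM in shNC cells, a log2 fold change of 0.40 (limma adjusted p = 0.00101). These 3 genes differed by about the same factor although their levels were far apart. RPS9, a small-subunit protein at the mRNA entry, differed least on the arm, with 182 ± 3.43 FPKM in shMYT1 and 155 ± 6.0 FPKM in shNC cells and a log2 fold change of 0.24 (limma adjusted p = 0.00395). All 8 passed in every fit that left out a library and under these scalings.

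**Figure D2:**
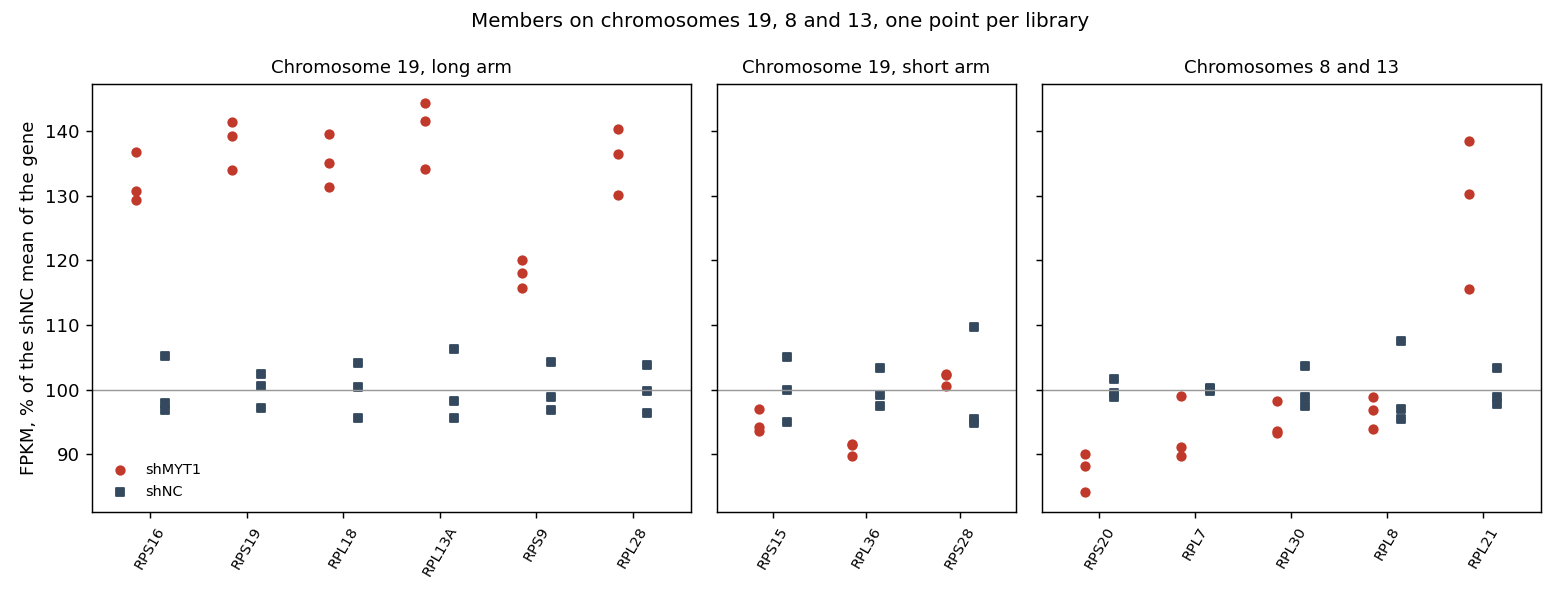
FPKM of 14 ribosomal protein genes on chromosomes 19, 8 and 13 in each library, as a percentage of the gene's shNC mean (circles, shMYT1; squares, shNC; 3 libraries each). The shMYT1 points lie above all shNC points for the 6 genes of 19q drawn and for RPL21, below them for RPL36, RPS20 and RPL7, and among them for the other genes.

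The rise was shared with other genes of the same arm. Of 429 tested genes on the long arm that encode no cytosolic ribosomal protein in this set, 52.9% rose and 0.233% fell, with a median log2 fold change of 0.25. Of the 82 of them at 10 FPKM or more, 75 rose (91.5%), with a median of 0.32. Around the 8 ribosomal genes, the median of the 25 nearest tested genes on each side lay between 0.24 and 0.30. When this local median was subtracted in each library, 6 of the 8 still rose, among them RPL13A by 0.18 (limma adjusted p = 0.0137). RPS9 then stood at -0.02 (limma adjusted p = 0.658). With only neighbours of at least 10 FPKM, a choice made after seeing the data, RPL13A, RPS19 and RPS16 rose, RPS9 fell by 0.11 (limma adjusted p = 0.0235), and RPL28 and RPL18 did not pass (limma adjusted p = 0.0801 and 0.0633). In that setting 9.83% of all tested genes rose and 10.8% fell.

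The short arm of chromosome 19 went the other way. None of its 4 ribosomal genes rose and 1 fell, with a median of -0.06, while 3.39% of 472 other tested genes of the arm rose and 26.1% fell, with a median of -0.11. RPL36 (ENSG00000130255, 5674947 to 5691876, plus strand), a large-subunit gene, was at 158, 161 and 161 FPKM in shMYT1 libraries, against 171, 175 and 182 FPKM in shNC libraries. The groups did not overlap, and the fall of 0.14 (SE 0.03, limma adjusted p = 0.0171) was close to the -0.15 of its neighbours. The call was lost without shMYT1 replicate 1 and without shNC replicate 2, with an adjusted p of up to 0.0644. RPS15, a small-subunit gene recurrently mutated in chronic lymphocytic leukaemia, stood at -0.07 and RPS28 at 0.03, and neither passed.

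All 4 genes on the long arm of chromosome 8 had values below 0, and 1 of them fell. RPS20 (ENSG00000008988, 56067295 to 56074581, minus strand), a small-subunit protein, was at 263, 269 and 251 FPKM in shMYT1 libraries, against 297, 296 and 304 FPKM in shNC libraries. The groups did not overlap, and the log2 fold change was -0.19 (SE 0.03, limma adjusted p = 0.00637). RPL7 was at 463, 503 and 456 FPKM in shMYT1 libraries, against 509, 509 and 507 FPKM in shNC libraries, also without overlap, but did not pass (log2 fold change -0.10, limma adjusted p = 0.112). RPL30, whose yeast counterpart binds its own transcript, stood at -0.07 and RPL8, a protein close to the catalytic centre, at -0.05. Among 318 other tested genes of the arm 46.9% fell and 4.09% rose, with a median of -0.20. Each of the 4 ribosomal genes lay above the median of its neighbours, which was -0.27 to -0.10, and with that median removed the 4 values were 0.05 to 0.15 with no gene past the threshold. With neighbours of at least 10 FPKM, RPL7 at 0.20 (limma adjusted p = 0.00406) and RPL30 at 0.18 (limma adjusted p = 0.0162) rose.

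RPL21 (ENSG00000122026, 27251309 to 27256691, plus strand) is the single ribosomal protein gene of chromosome 13, a large-subunit gene. It was at 108, 129 and 122 FPKM in shMYT1 libraries, against 91.3, 96.6 and 92.4 FPKM in shNC libraries. The groups did not overlap, although the shMYT1 values spread widely, and the log2 fold change was 0.35 (SE 0.06, limma adjusted p = 0.0103). On that chromosome 53.9% of 217 other tested genes rose and 2.3% fell, and the neighbours of RPL21 had a median of 0.21. With this median removed the gene stood at 0.15 and did not pass (limma adjusted p = 0.182). On chromosome 4 RPL9, RPL34 and RPS3A stood at 0.01, 0.10 and 0.05 and did not pass. With the local median removed RPL34 rose by 0.17 (limma adjusted p = 0.00669) and RPS3A by 0.16 (limma adjusted p = 0.0209).

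Outside chromosome 19, 15 of 71 tested ribosomal genes rose and 2 fell, against 10.8% and 12.3% of 13122 other tested genes. Among other genes of at least 10 FPKM there, 15.2% rose and 15.2% fell. The median of the 71 was 0.07, against -0.0071 for the other genes. Leaving out chromosomes 8 and 13 as well, 14 of 66 rose and 1 fell, against 10.3% and 11% of other genes, with values between -0.19 and 0.24. The count of 15 was 7, 6 and 7 without shMYT1 replicate 1, 2 or 3 (7.76%, 8.95% and 8.01% of all tested genes rose). It was 4 and 2 without shNC replicate 1 or 2 (7.78% and 7.22%), and 20 without shNC replicate 3 (11.2%). With a common total of all rows it was 6 (9.27%), and 16 with one that leaves out mitochondrial rows and the set (11.6%). With quantile normalization it was 6 (12%) and with voom on recovered fragments 25 (15.4%). Without shMYT1 replicate 2 and without shNC replicate 1 or 2, the rising share of the 71 was below that of all tested genes. The same held with the common total of all rows and with quantile normalization. Of the 15 genes, RPL5 and RPL21 passed in all 6 fits that left out a library. By subunit, 5 of 25 small-subunit genes rose outside chromosome 19 with a median of 0.08, and 10 of 41 large-subunit genes with a median of 0.07.

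RPL5 stood apart from its neighbours. With RPL11 and the 5S rRNA, its protein forms the 5S particle of the large subunit, which binds the ubiquitin ligase MDM2 when ribosome assembly fails. RPL5 (ENSG00000122406, chromosome 1, 92831983 to 92841924, plus strand) was at 329, 340 and 324 FPKM in shMYT1 libraries, against 279, 279 and 282 FPKM in shNC libraries. The groups were far apart and tight, and the log2 fold change was 0.24 (SE 0.03, limma adjusted p = 0.00141) while the neighbours had a median of 0.01. With the local median removed it was still 0.24 (limma adjusted p = 0.00468). RPL5 passed in all 19 alternatives tried, as did 4 genes of 19q, among them RPL13A, RPS19 and RPS16. The other 21 of the 26 called genes were lost or changed direction in at least 1. RPL11, its partner, was at 399, 432 and 389 FPKM in shMYT1 libraries, against 401, 397 and 373 FPKM in shNC libraries. Those values overlapped, and its log2 fold change of 0.06 (95% interval -0.06 to 0.17) did not pass.

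The stalk that recruits elongation factors to the large subunit is built from RPLP0, RPLP1 and RPLP2, and all 3 genes rose a little. RPLP0 averaged 419 ± 9.45 FPKM in shMYT1 and 378 ± 19.5 FPKM in shNC cells (SD, n = 3 each), a log2 fold change of 0.15 (limma adjusted p = 0.0410). RPLP1 averaged 345 ± 5.57 and 320 ± 5.54 FPKM in shMYT1 and shNC cells, a log2 fold change of 0.11 (limma adjusted p = 0.0256). RPLP2 averaged 312 ± 10.5 and 288 ± 1.94 FPKM in shMYT1 and shNC cells, a log2 fold change of 0.12 (limma adjusted p = 0.0312). In all 3 the shMYT1 libraries lay above the shNC libraries. RPLP0 and RPLP1 passed without shNC replicate 3 but in no other fit that left out a library (adjusted p up to 0.111 and 0.0920), and RPLP2 only without shMYT1 replicate 1 (up to 0.103). Of the other large-subunit genes, RPL24 (0.17), RPL3 (0.15), RPL7A (0.14), RPL23 (0.13) and RPL4 (0.12) rose. Without shNC replicate 2 none of these 5 passed, with an adjusted p of up to 0.0570 for RPL3 and 0.107 for RPL24 over the fits without a library. RPL3, which lies near the catalytic centre, averaged 430 ± 10.0 FPKM in shMYT1 and 388 ± 9.86 FPKM in shNC cells (limma adjusted p = 0.0132). RPL24, part of a bridge between the subunits, averaged 228 ± 5.62 FPKM in shMYT1 and 203 ± 12 FPKM in shNC cells (limma adjusted p = 0.0352). The neighbours of RPL24 had a median of -0.06. With the local median removed RPL24 rose by 0.22 (limma adjusted p = 0.0378), so it lay about as far from its neighbours as RPL5. RPL10, a protein of the catalytic centre that joins late in assembly, stood at 0.09 (limma adjusted p = 0.180). Opposite-strand exons overlap 52.7% of its exon bases, where fragments cannot be told apart without a strand setting.

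Among the small-subunit genes outside chromosome 19, RPS26 (0.11), RPS7 (0.11), RPSA (0.10) and RPS3 (0.10) rose. RPSA, also known as the precursor of the laminin receptor, averaged 204 ± 5.05 FPKM in shMYT1 and 190 ± 2.66 FPKM in shNC cells (SD, n = 3 each; limma adjusted p = 0.0355). RPS3, a protein at the mRNA entry with a known second role in DNA repair, averaged 467 ± 9.44 FPKM in shMYT1 and 436 ± 9.74 FPKM in shNC cells (limma adjusted p = 0.0445). These differences were small and close to the threshold. RPS26 passed in none of the 6 fits without a library (0.0516 to 0.112), and RPS7, RPSA and RPS3 passed only without shNC replicate 3 (up to 0.148, 0.110 and 0.131). RPS6, the protein phosphorylated by the S6 kinases, was at 368, 391 and 374 FPKM in shMYT1 libraries, against 380, 388 and 395 FPKM in shNC libraries. Its values overlapped, and its log2 fold change of -0.04 (95% interval -0.11 to 0.04) did not pass. The ubiquitin fusion gene RPS27A stood at 0.04 and FAU, which is fused to a ubiquitin-like protein, at 0.09, neither past the threshold.

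Of the 5 tested paralogs 0 rose and 1 fell, against 11.9% and 12.3% of all tested genes. So few genes cannot be told apart from those shares. RPL39L (ENSG00000163923, chromosome 3, 187120948 to 187180908, minus strand), which is known from male germ cells, fell. It was at 29.9, 31.3 and 29.8 FPKM in shMYT1 libraries, against 34.5, 36.1 and 33.4 FPKM in shNC libraries. The groups did not overlap, the log2 fold change was -0.19 (SE 0.04, limma adjusted p = 0.0146) and the neighbours had a median of -0.01. It was the only gene of the set that fell with the local median removed, and its call was lost without shMYT1 replicate 1 and without shMYT1 replicate 3, with an adjusted p of up to 0.0559. Its X-linked partner RPL39 averaged 180 ± 4.39 FPKM in shMYT1 and 177 ± 5.69 FPKM in shNC cells and did not pass. In the other pairs neither gene passed except RPL3: RPL22L1 and RPL22 both stood at 0.12, RPS27L at -0.0028 and RPS27 at 0.11, RPL7L1 at 0.02 and RPL7 at -0.10, and RPL26L1 at -0.0015 and RPL26 at 0.02.

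Added together, the 84 genes made up 7.21 to 7.47% of all FPKM in the shMYT1 libraries and 6.89 to 7.14% in the shNC libraries. Their summed level averaged 22243 ± 538 FPKM in shMYT1 and 20756 ± 495 FPKM in shNC cells (SD, n = 3 each), a ratio of 1.07. The 8 genes of 19q held 2592 ± 81.8 FPKM in shMYT1 and 1928 ± 93.5 FPKM in shNC cells, a ratio of 1.34. These 8 genes accounted for 44.7% of the difference in the total. The other genes together had a ratio of 1.04, with 19253, 20183 and 19517 FPKM in shMYT1 libraries, against 18587, 18603 and 19294 FPKM in shNC libraries. There the lowest shMYT1 library lay below the highest shNC library, so the groups overlapped. Scaled to the same FPKM total, the ratio of all 84 was 1.04. The small and large subunits had ratios of 1.08 and 1.07.

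Across the 83 genes the fold change followed that of the neighbours. Pearson's r was 0.85 and Spearman's rho 0.61 between a gene's log2 fold change and the median of its neighbours, and r was 0.61 and rho 0.41 over the 71 genes outside chromosome 19. These are correlations across genes that share the same 6 libraries, not across independent samples. None was computed without chromosomes 19, 8 and 13 together, where the neighbours of the 66 genes had medians of only -0.11 to 0.08. In 72 of the 83 genes the value lay above that of the neighbours, and the median distance was 0.07. With the local median removed, 18 genes rose and 1 fell, against 10.3% and 9.97% of 14011 genes, and 14 of the 18 had also risen without it.

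Pseudogene copies were looked at because short fragments can fit both a gene and its copy. GENCODE 29 lists 1144 pseudogenes of these genes, 77 of the 84 have at least 1, and RPL23A has the most with 91. The table holds 440 such rows, and of the 85 tested 7 rose and 3 fell, shares below the 11.9% and 12.3% of all tested genes. RPL13AP5, a copy of RPL13A on chromosome 10 (96750288 to 96750899, plus strand), was at 175, 190 and 191 FPKM in shMYT1 libraries, against 123, 127 and 141 FPKM in shNC libraries. Its log2 fold change of 0.50 (limma adjusted p = 0.00191) matched the 0.49 of its parent and not the -0.01 of its own neighbours. Both tested copies of RPL7 of over 100 FPKM fell: RPL7P9 on chromosome 1 by 0.21 (limma adjusted p = 0.00296) and RPL7P1 on chromosome 5 by 0.17 (limma adjusted p = 0.0389), while RPL7 itself stood at -0.10. RPL21P16 on chromosome 10 rose by 0.19 (limma adjusted p = 0.0454), with RPL21 at 0.35.

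**Figure D3:**
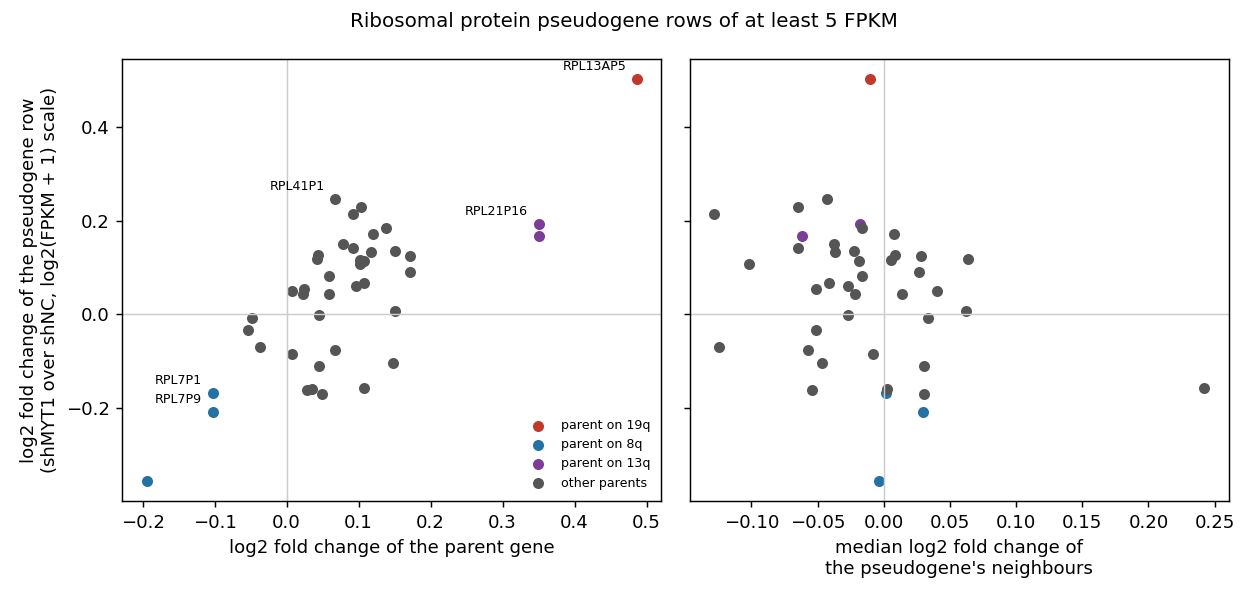
Log2 fold change, shMYT1 over shNC, of the 42 ribosomal protein pseudogene rows of at least 5 FPKM, against that of the parent gene (left) and against the median of the pseudogene's own neighbours (right). Points rise with the parent (r = 0.72) and do not rise with the neighbours (r = -0.27); RPL13AP5 stands at the top beside RPL13A.

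Over the 42 rows of at least 5 FPKM, r was 0.72 and rho 0.63 with the parent, and -0.27 and -0.29 with the pseudogene's own neighbours, again across rows that share the libraries. Not every copy followed its parent, and some held more than the parent. RPS28P7 on chromosome 11, the highest of the tested copies, averaged 1024 FPKM in shMYT1 and 1148 FPKM in shNC cells. Its groups did not overlap, and it stood at -0.16 without passing (limma adjusted p = 0.0943). Its parent RPS28 averaged 149 and 147 FPKM and stood at 0.03. RPL9P9 averaged 664 and 641 FPKM, against 99.4 and 98.9 FPKM for RPL9. RPL41P1 rose by 0.25 (limma adjusted p = 0.00855) with RPL41 at 0.07, RPL35AP3 rose by 0.77 from a low level with RPL35A at 0.03, and RPL29P19 on chromosome 8 fell by 0.70 with RPL29 at 0.09. The other copies that rose, all of them low, were RPL13AP25 on chromosome 13 (0.46), RPL24P2 (0.32) and RPS2P32 (0.33). How many fragments of a parent were counted at its copies, or the reverse, was not tested, so the level of each gene with a near-identical copy is uncertain.

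The genes are among the most abundant of these cells. The median level over the tested genes was 186 FPKM, against 6.08 FPKM over all tested genes, and 66 of them lay over 100 FPKM. RPS2 was highest, with 996 ± 16.9 FPKM in shMYT1 and 929 ± 55.8 FPKM in shNC cells (SD, n = 3 each), followed by RPS27, RPL13A and RPL8. The order of such neighbours is not firm: RPL13A exceeded RPS27 in shMYT1 cells, with 875 against 807 FPKM, and lay under it in shNC cells, with 625 against 748 FPKM. Of the 84 genes, 8 lay under 20 FPKM: RPS10, RPL17, RPL36A, RPS27L, RPS15A, RPL26, RPL22L1 and RPL3L. RPS10 was lowest of the tested, at 1.77, 1.21 and 0.891 FPKM in shMYT1 libraries, against 1.05, 1.39 and 0.929 FPKM in shNC libraries, from 37 to 83 fragments. Its values overlapped widely, and 39.4% of its exon bases are shared with a gene on the same strand. RPL17 averaged 6.52 ± 0.58 FPKM in shMYT1 and 6.74 ± 0.22 FPKM in shNC cells and shares 32.7% in the same way. The deposited FPKM divides by the exons of all isoforms joined, so long rare isoforms can lower a gene's level. RPS10 and RPL17 have 2358 and 2466 joined exon bases, near the 2369 of RPL13A. RPS10P3, a copy of RPS10 on chromosome 9, averaged 7.35 FPKM in shMYT1 and 7.02 FPKM in shNC cells, more than RPS10 itself. What set these low levels was not tested.

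**Figure D4:**
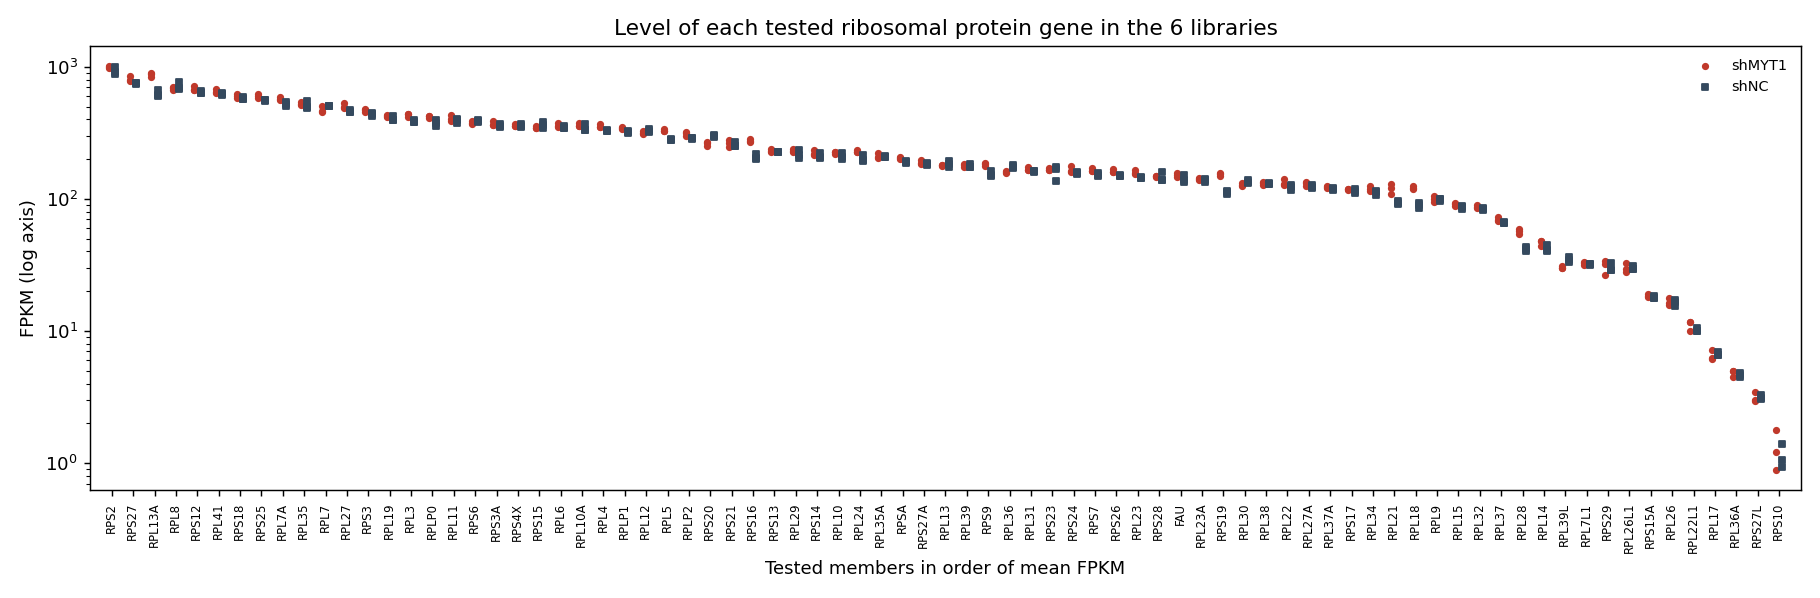
FPKM (log axis) of 79 tested ribosomal protein genes in the 6 libraries, in order of mean level (circles, shMYT1; squares, shNC). Levels run from 996 FPKM for RPS2 to 1.29 FPKM for RPS10 (shMYT1 means), and the groups part visibly for RPL13A, RPS16, RPS19, RPL18 and RPL28.

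Within introns, 28 of the genes hold 60 snoRNA genes, and 31 share some exon base with a gene on the opposite strand. Of 12 non-coding snoRNA host genes, which often carry a TOP tract too, 3 rose and 2 fell, against 11.9% and 12.3% of all tested genes. SNHG6, on the long arm of chromosome 8, averaged 62.1 ± 3.29 FPKM in shMYT1 and 78.4 ± 0.31 FPKM in shNC cells (SD, n = 3 each), a fall of 0.33. GAS5 rose by 0.20, SNHG5 by 0.19 and LRRC75A-AS1 by 0.11, and SNHG8, on chromosome 4, fell by 0.19.

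Genes that act with ribosomal proteins were read from lists. Of 36 tested translation factors and other TOP mRNAs, 12 rose and 2 fell, with a median of 0.06, against 11.9% and 12.3% of all tested genes. The largest change was in EIF3K on 19q, a subunit of initiation factor eIF3, at 28.8, 27.3 and 27.8 FPKM in shMYT1 libraries, against 18.6, 20.1 and 21.3 FPKM in shNC libraries. The groups did not overlap, and it rose by 0.47 (limma adjusted p = 0.00141). TPT1 on chromosome 13, a TOP mRNA for a growth-related protein, rose by 0.39, and VIM, the vimentin gene on chromosome 10, by 0.24. Both that fell lie on chromosome 8: EIF4EBP1, an inhibitor of cap-dependent initiation under mTOR, by 0.24 and PABPC1, the poly(A)-binding protein gene, by 0.14. Of 24 chaperones, importins and late assembly factors of ribosomal proteins, 3 rose and 1 fell, where 11.9% and 12.3% of all tested genes did, so the rising share is near that of all genes. PDCD2L, an RPS2 partner, rose by 0.47 and GRWD1, an RPL3 chaperone, by 0.27, both on 19q, and the importin gene IPO5 on chromosome 13 rose by 0.27. With the local median removed GRWD1 stood at -0.05 and did not pass, and PDCD2L, at 2.28 FPKM in shMYT1 and 1.37 FPKM in shNC cells, did not pass in 3 of the 6 fits without a library (shMYT1 replicate 3, shNC replicate 1 or shNC replicate 3; adjusted p up to 0.0639). LTV1, an assembly factor of the small subunit, was the 1 that fell, by 0.24.

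Among genes around the 5S particle and MDM2, GTF3A, the factor for 5S rRNA transcription on chromosome 13, rose by 0.14 (limma adjusted p = 0.0217). With the local median removed it stood at -0.06 and did not pass. It also lost its call in 4 of the 6 fits without a library and kept it without shMYT1 replicate 3 or shNC replicate 3 (adjusted p up to 0.0791). MDM2, at 4.54, 4.59 and 4.61 FPKM in shMYT1 libraries, against 5.08, 5.18 and 4.70 FPKM in shNC libraries, did not pass (limma adjusted p = 0.154). CDKN1A, an inhibitor of the cell cycle, averaged 2.22 ± 0.28 FPKM in shMYT1 and 2.20 ± 0.07 FPKM in shNC cells. Of 19 Diamond-Blackfan anaemia genes in the set, 5 rose (RPS19, RPL18, RPL5, RPS26 and RPS7) and 0 fell, with a median of 0.08, beside 23 and 3 of the 83 ribosomal genes with the same median and 11.9% and 12.3% of all tested genes.

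Markers of cell types were read beside these values. All 12 noradrenergic neuroblastoma markers were found, with a summed level of 3039 to 3125 FPKM in shMYT1 and 3435 to 3589 FPKM in shNC libraries, of which MYCN alone gave 1558 FPKM in shMYT1 and 1892 FPKM in shNC cells on average. Of the 12, 5 rose and 3 fell, among them MYCN by 0.28 (limma adjusted p = 0.000969). All 9 fibroblast and smooth muscle markers were found, with sums of 121 to 124 FPKM in shMYT1 and 166 to 170 FPKM in shNC libraries, to which LUM gave 54.6 FPKM in shMYT1 and 97.7 FPKM in shNC cells on average. Of the 8 tested, TAGLN (0.54), ACTA2 (0.52), PDGFRA (0.33) and COL3A1 (0.23) rose, and LUM (-0.83), DCN (-0.58) and COL1A1 (-0.17) fell. Epithelial markers summed to 2.25 to 2.29 FPKM in shMYT1 and 2.16 to 2.60 FPKM in shNC libraries (5 of 5 found), and Schwann and glial markers to 2.68 to 3.39 and 2.14 to 2.35 FPKM (5 of 6 found). Leukocyte markers summed to 0.83 to 1.22 FPKM in shMYT1 and 0.35 to 0.61 FPKM in shNC libraries (3 of 5 found), with PTPRC at 0.051 FPKM in shMYT1 and 0.064 FPKM in shNC cells, endothelial ones to 0.24 to 0.28 and 0.08 to 0.13 FPKM, and erythroid ones to 0.07 to 0.86 FPKM in shMYT1 libraries, while they were listed at 0 in shNC libraries. The part of MYCN, of the mitochondrial share and of these markers in the ribosomal protein values was not tested.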

How the data were processed

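The authors deposited 1 table of FPKM with a column per library, and its values were used as they are. The submitters' processing notes name the build hg38 and the tools featureCounts 1.5.0-p3 and HISAT2 2.0.5. Annotation, filters and strand setting were not given in the sources used here. Per the labels' protocols, total RNA was made into libraries with a NEBNext Ultra kit. Symbols, gene types and hg38 positions came from GENCODE 29, which holds 32301 (99.59%) of the 32434 IDs. FPKM times the joined exon length was a whole number of steps within 0.01 in 95.38% of the found IDs (66 of the 84 ribosomal genes), which gave fragments and depth. On 1 kb of exon 3 fragments equal 0.140 to 0.170 FPKM (counting error only).

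Rows whose mean over the 6 libraries reached 1 FPKM (14106 genes) entered limma 3.58.1 in R 4.3.3. The test used log2(FPKM + 1), a scale that understates changes of low genes, with a variance trend, two-sided, Benjamini-Hochberg adjustment over all of them and a threshold of 0.05. The neighbours of a gene are the 25 nearest tested genes on each side outside the set. The script was tested on simulated data. Replicates differed by more than counting noise (chi-square per gene 2.09 to 3.41), and none were merged. The replicate numbers, shared by both groups, were not taken as pairs.

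The genes and lists were chosen with earlier results of these data known. Named were MYT1, genes by role, all on chromosomes 19, 8, 13 and 4, paralog pairs, all that fell, the 10 largest rises and up to 3 passing genes per list. LTV1, MDM2, CDKN1A, the cell type markers, the other genes that rose, the pseudogene rows and the genes singled out for their level were named after their values were seen. Alternatives changed the gene types, libraries, local median, replicate block, filter, pseudocount, scaling and variance model. Sequences came from RefSeq (GRCh38.p14). Some genes of the set and lists are counted but not reported here.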

Additional observations from a re-analysis of the deposited data

How the results depend on the processing

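In 19 alternatives for the 83 tested genes, 5 of the 26 called genes kept their call throughout. The number of rising genes was 23. It was 10 with no filter on low values, where more genes are tested, 14 on rescaling to a common FPKM total, 24 on rescaling to a total without mitochondrial rows and the set, 14 with quantile normalization and 12 with no variance trend. Leaving out 1 library gave 10 to 29 rising and 1 to 4 falling genes. Falling genes numbered 5 and 3 on these rescalings, 10 with quantile normalization and 1 with the local median removed. Outside chromosome 19 the 15 rising genes of 71 were 2 with no filter (3.84% of all tested genes rose). They were 6 and 16 on these rescalings (9.27% and 11.6%) and 6 with quantile normalization (12%). With no trend they were 4 (10.9%), with voom on recovered fragments 25 (15.4%) and without 1 library 2 to 20 (7.22 to 11.2%). The median log2 fold change of 0.077 was 0.041 and 0.072 on these rescalings, 0.029 with quantile normalization and 0.058 to 0.088 without 1 library. The summed FPKM ratio of 1.07 was 1.0449 on rescaling to the total of all rows and 1.06 to 1.09 without 1 library. Where no reason is given, the cause was not tested.

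Some values changed sign. RPS18, at 0.06 in the main result, was -0.0841 with quantile normalization. With the local median removed RPS9 was -0.0248, RPS20 0.0583, GRWD1 -0.0506 and GTF3A -0.0579. With neighbours of at least 10 FPKM, added after seeing the data, RPS9 was -0.1097, RPL30 0.1759, RPL7 0.1976, RPL36 0.0038, RPS20 0.0614, GRWD1 -0.0813 and GTF3A -0.0408.

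With the replicate number as a block, the call was the same in 81 of the 83 tested genes. RPL24 and RPS7, which rose in the main result, lost their call. Same-numbered libraries correlated at 0.03, 0.01 and 0.04, each library best with its own number, a hint from the data and not the design. Depth limits RPS10 and RPL3L most.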
